A study of Mus musculus with 12 samples.

Results

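Immunoglobulin variable (V) gene segments of the heavy chain (symbols that begin Ighv) and of the kappa light chain (Igkv) were measured in RNA-seq libraries of whole mouse cochlea. Members were the segments whose mean level over all 12 libraries was at least 0.5 FPKM (fragments scaled to exon length and to the library's total). This held for 153 of the 236 Ighv and Igkv genes measured, among 34538 genes in all. They comprised 81 Ighv and 72 Igkv segments, of which 151 are annotated as V genes and 2, Ighv8-10 and Ighv1-41, as pseudogenes. The members were chosen by their mean FPKM over all libraries, so their levels are given as a description.

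All libraries came from wild-type C57BL/6J mice aged 12 months. The coffee group (4 libraries) drank water with 0.1% black coffee and the GTE group (4 libraries) water with 0.006% green tea extract, each from 3 months of age. The control group (4 libraries) drank plain water. The labels do not say whether each library is a separate animal or a pool, and give no sex or batch. The p-values below therefore reflect the scatter of these libraries alone, part of which may be technical. Genes that mark cochlear tissue were present in every library, with a summed level over 14 genes, among them the cochlin gene Coch, of 1660 to 3160 FPKM in coffee libraries, 2160 to 3420 FPKM in GTE libraries and 3380 to 3550 FPKM in control libraries.

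An antibody gene does not exist ready-made in the germ line. In each developing B cell, 1 of many V segments is cut and joined to a short diversity or joining segment, and the joined exon is spliced to a constant region, so that a B cell clone and the plasma cells derived from it carry the same V segment in their heavy chain and the same V segment in their light chain. The set of V segments seen in a tissue's RNA is therefore a coarse record of which B lineage clones, above all antibody-secreting plasma cells with their very abundant immunoglobulin mRNA, contributed RNA to it. The inner ear has few such cells, while the marrow of the bone around it makes and houses them.

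Each segment encodes a leader peptide and most of a variable domain, up to the start of the third complementarity-determining region (CDR3), the loop made by the joining reaction. For 6 segments that the results turn on, the last 240 coding bases are shown from 5′ to 3′, as annotated by GENCODE on mm10. Igkv4-55 and Ighv1-26 had the highest mean levels of the kappa and the heavy segments. Capitals mark TATTACTG, the codons of the conserved tyrosines before CDR3 and the first bases of the cysteine codon that follows them.
Igkv4-55: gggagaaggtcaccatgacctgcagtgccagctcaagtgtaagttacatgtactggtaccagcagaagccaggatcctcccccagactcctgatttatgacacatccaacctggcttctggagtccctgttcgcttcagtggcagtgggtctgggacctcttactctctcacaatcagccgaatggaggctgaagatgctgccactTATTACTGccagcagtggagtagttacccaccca
Ighv1-26: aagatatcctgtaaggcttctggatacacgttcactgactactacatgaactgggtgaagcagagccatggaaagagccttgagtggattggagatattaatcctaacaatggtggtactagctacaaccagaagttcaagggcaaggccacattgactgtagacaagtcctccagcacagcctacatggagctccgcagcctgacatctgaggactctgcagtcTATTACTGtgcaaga

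Igkv3-4 and Ighv2-4 showed extreme single-library peaks. Their coding parts are 359 and 350 bases long, and that of Ighv2-4 holds no exact TATTACTG.
Igkv3-4: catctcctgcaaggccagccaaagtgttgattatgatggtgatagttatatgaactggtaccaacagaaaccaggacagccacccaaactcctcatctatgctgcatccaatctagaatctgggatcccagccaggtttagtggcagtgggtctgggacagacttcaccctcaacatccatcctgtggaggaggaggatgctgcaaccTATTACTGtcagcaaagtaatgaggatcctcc
Ighv2-4: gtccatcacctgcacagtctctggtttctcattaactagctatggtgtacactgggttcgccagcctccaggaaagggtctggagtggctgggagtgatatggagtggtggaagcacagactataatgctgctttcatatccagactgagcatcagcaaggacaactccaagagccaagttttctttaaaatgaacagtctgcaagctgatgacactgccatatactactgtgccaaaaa

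Igkv1-117 had the smallest p between coffee and control libraries. The pseudogene Ighv1-41 varied least over the libraries, and the end of its transcript is given, in which TATTACTG is also missing.
Igkv1-117: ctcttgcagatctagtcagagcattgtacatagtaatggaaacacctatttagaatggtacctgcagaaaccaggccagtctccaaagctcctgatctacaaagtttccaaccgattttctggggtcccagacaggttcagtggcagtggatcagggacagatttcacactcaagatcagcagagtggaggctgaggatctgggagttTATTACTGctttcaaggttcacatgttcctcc
Ighv1-41: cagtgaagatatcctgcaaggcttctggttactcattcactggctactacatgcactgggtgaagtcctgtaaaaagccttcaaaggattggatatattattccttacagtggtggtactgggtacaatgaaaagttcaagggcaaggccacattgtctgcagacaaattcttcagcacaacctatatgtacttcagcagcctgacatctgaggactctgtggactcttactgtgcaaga

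TATTACTG, searched on the sense strand only, was found in 98 of the 153 members (64.1%), 49 of them Ighv and 49 Igkv. Of 131058 annotated transcripts of at least 300 bases, 2.693% held it. Segments of a family resemble each other, and a median of 24.2% of a member's 50-base windows was also found in another V segment. Only 21 members shared no such window, and 21 shared at least 50% of theirs. The extremes were Ighv1-72, the segment known from responses of C57BL/6 mice to nitrophenyl haptens, which shared 92.5% of its windows, chiefly with Ighv1-62-3, and Ighv1-62-2, which shared 91.8%, chiefly with Ighv1-71. Igkv4-59 shared 74.3% and Igkv4-70 63.9%. How fragments that fit several segments were counted is not given in the sources used here, so values of such segments are uncertain.

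All Ighv members lay on the minus strand of mm10 chromosome 12 between positions 113588267 and 116000461. The Igkv members lay on chromosome 6 between 67609713 and 70704177, in both orientations, as is known of the kappa locus. There, 28 members on the plus strand held 35.5% of the summed mean kappa level and 44 on the minus strand held 64.5%. No member's exons overlapped those of another annotated gene. With 329 to 461 exon bases, 3 fragments corresponded to 0.28 to 0.39 FPKM, the limit that a count of 0 allows. Whole fragment counts could be recovered for every member, from denominators of 20526023 to 24835934 fragments per library. These limits and all intervals below cover counting error only, since fragments were not tagged as single molecules.

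Mean levels of members ran from 0.508 FPKM (Ighv8-10) to 28.2 FPKM (Igkv4-55), with a median of 2.64 FPKM. There were 17 members at 10 FPKM or more and 27 under 1 FPKM. Just inside the minimum stood Ighv8-10 at 0.508, Ighv5-15 at 0.52 and Ighv12-3 at 0.533 FPKM. Just outside stood Igkv5-45 at 0.495, Igkv9-123 at 0.469 and Igkv4-50 at 0.437 FPKM. The 83 Ighv and Igkv genes under the minimum, 33 of them pseudogenes, held at most 1.86% of all Ighv and Igkv FPKM of any library.

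The total of heavy chain V segments differed several-fold between libraries of the same group. Summed over the 81 Ighv members it was 393.1, 186.5, 237.3 and 556.3 FPKM in coffee libraries 1 to 4, then 554.2, 127.1, 338.6 and 131.7 FPKM in GTE libraries 1 to 4, against 204.5, 91.6, 82.5 and 148.3 FPKM in control libraries 1 to 4. Coffee 4 and GTE 1 were highest and control 3 and control 2 lowest, and coffee 2 and all GTE libraries other than 1 and 3 fell within the control range. Group means were 343.3 ± 167.0 FPKM in coffee, 287.9 ± 203.1 FPKM in GTE and 131.7 ± 56.6 FPKM in control libraries (SD, n = 4 each). Because the segments were chosen with results of these data known, no test is given for the sums.

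Kappa segments followed the heavy ones. Their sums were 639.6, 331.5, 454.0 and 1034 FPKM in coffee libraries, 864.3, 216.7, 461.8 and 266.4 FPKM in GTE libraries, and 427.1, 147.3, 157.2 and 260.4 FPKM in control libraries. Again coffee 4 and GTE 1 led, followed by coffee 1, and all 3 groups overlapped. Means were 614.8 ± 306.8 FPKM in coffee, 452.3 ± 294.3 FPKM in GTE and 248.0 ± 129.9 FPKM in control libraries (SD, n = 4 each). The ratio of kappa to heavy sums stayed between 1.36 (GTE 3) and 2.09 (control 1) while the sums themselves differed several-fold. In these bulk libraries, fewer cells of a type and less RNA per cell cannot be told apart.

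**Figure D1:**
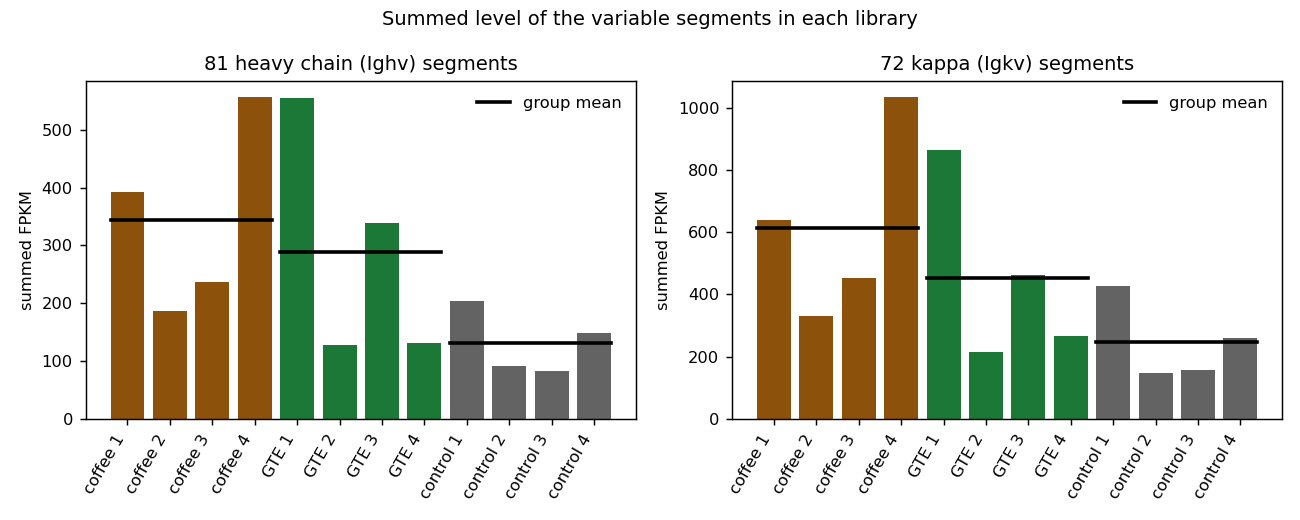
Summed FPKM of the 81 heavy chain (left) and 72 kappa (right) V segments in each library, with a black line at each group's mean (n = 4). Coffee 4 and GTE 1 stand highest in both panels, at 556.3 and 554.2 FPKM for heavy segments, and the 3 groups overlap.

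Genes of neutrophil precursors and other marrow myeloid cells were also higher in the libraries rich in V segments. Over 15 such genes, among them Mpo, which encodes myeloperoxidase, the mean log2(FPKM + 1) was 9.33, 8.56, 8.80 and 8.99 in coffee libraries, 9.49, 8.42, 8.07 and 7.90 in GTE libraries, and 8.37, 7.69, 8.19 and 7.55 in control libraries. Their summed level was 18100 to 29000 FPKM in coffee, 12800 to 34000 FPKM in GTE and 10800 to 17300 FPKM in control libraries. GTE 3, with high V sums, was not among the libraries high for these genes. None of the 15 was at 0 in all libraries. Their median log2 difference was 0.84 for coffee against control and 0.45 for GTE against control. At an unadjusted limma p under 0.05, 9 and 4 of them were higher and 0 lower. The median of the 14 cochlear genes was -0.69 for coffee against control and -0.18 for GTE against control, with 8 and 1 lower and 0 higher. Of all genes tested, 9.25% were higher and 10.8% lower at this p for coffee against control. For GTE against control, 4.14% were higher and 4.3% lower.

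Markers of the B lineage were present in all groups. Summed over 15 plasma cell genes, among them Jchain and Mzb1, the level was 210 to 267 FPKM in coffee, 185 to 261 FPKM in GTE and 198 to 263 FPKM in control libraries. Genes of the secretory pathway that many cells express made up much of this sum, such as Xbp1, at 70.6 ± 4.04 FPKM in coffee, 59.1 ± 4.46 FPKM in GTE and 80.2 ± 10.8 FPKM in control libraries (SD, n = 4 each). Mzb1, which is more specific to the B lineage, averaged 7.04 ± 2.33 FPKM in coffee, 6.23 ± 2.04 FPKM in GTE and 4.04 ± 1.06 FPKM in control libraries. For coffee against control the list's median log2 difference was 0.27, with 3 genes higher and 0 lower at an unadjusted p under 0.05, and for GTE against control it was 0.18, with 1 higher and 2 lower. The 14 mature B cell genes, among them Cd79a and Cd79b, summed to 26.5 to 62.1 FPKM in coffee, 26.2 to 92.0 FPKM in GTE and 18.1 to 28.3 FPKM in control libraries, with Cr2 under 0.2 FPKM on average. Cd37 gave much of this sum, at 21.7 ± 8.66 FPKM in coffee, 18.55 ± 13.5 FPKM in GTE and 10.4 ± 2.07 FPKM in control libraries (SD, n = 4 each). The 13 genes of B cell precursors summed to 56.0 to 85.8 FPKM in coffee, 63.3 to 86.7 FPKM in GTE and 59.8 to 83.7 FPKM in control libraries, much of it from Akap12, at 39.7 ± 12.1 FPKM in coffee, 41.6 ± 10.7 FPKM in GTE and 41.5 ± 12.3 FPKM in control libraries (SD, n = 4 each). The sum hides low genes of the list. Rag1 averaged 0.715 FPKM in coffee, 1.26 FPKM in GTE and 0.430 FPKM in control libraries, with overlap. It was highest in GTE 1 and coffee 4, as the V sums were. Vpreb2 averaged 0.243, 0.523 and 0.405 FPKM, lower in coffee than in control libraries. For 10 T and NK cell genes the sums were 41.9 to 95.4 FPKM in coffee, 24.3 to 90.4 FPKM in GTE and 19.3 to 36.6 FPKM in control libraries. Most of this came from Nkg7, at 45.2 ± 14.6 FPKM in coffee, 34.9 ± 25.2 FPKM in GTE and 16.2 ± 6.57 FPKM in control libraries (SD, n = 4 each). Nkg7 was highest in GTE 1 and coffee 1, as Mpo was, so this sum does not measure T cells alone. Trac averaged 3.16 FPKM in coffee, 2.03 FPKM in GTE and 1.50 FPKM in control libraries, and Cd3d 1.39, 0.591 and 0.629 FPKM. For 10 erythroid genes the sums were 1920 to 5400 FPKM in coffee, 4160 to 9120 FPKM in GTE and 3150 to 5180 FPKM in control libraries. Of these lists, 13 plasma cell, 6 mature B cell, 9 precursor, 7 T and NK cell and 10 erythroid genes passed the filter and were tested, and none of those passed the adjusted threshold in any comparison. For the last 4 lists in this order, median log2 differences were 0.59, 0.20, 0.67 and 0.33 for coffee against control. At an unadjusted limma p under 0.05, 1, 2, 5 and 0 genes were higher and 0 lower. For GTE against control the medians were 0.76, 0.24, 0.23 and 0.77, with 3, 2, 1 and 1 higher and 0 lower. All these counts come from small lists and stand beside 9.25% of all genes tested higher and 10.8% lower for coffee. For GTE the shares were 4.14% higher and 4.3% lower. How far cell makeup sets the V segment levels was not tested.

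No single segment dominated all libraries. The leading heavy segment was Ighv10-1 with 5.81%, Ighv1-26 with 19.3%, Ighv1-53 with 15.3% and Ighv1-26 with 7.33% of the heavy sum in coffee libraries 1 to 4. In GTE libraries 1 to 4 it was Ighv1-26 with 13.0%, Ighv6-3 with 11.0%, Ighv1-53 with 14.2% and Ighv1-26 with 11.2%. In control libraries 1 to 4 it was Ighv3-6 with 17.5%, Ighv1-64 with 7.36%, Ighv1-26 with 10.6% and Ighv1-53 with 14.9%. Thus 6 heavy segments led at least 1 library, and Ighv1-26 and Ighv1-53 led libraries of all 3 groups.

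Among kappa segments, 8 led at least 1 library. These were Igkv4-74 (8.13%), Igkv4-70 (10.1%), Igkv4-55 (12.4%) and Igkv3-4 (11.5%) in coffee libraries 1 to 4, and Igkv6-32 (10.6%), Igkv4-59 (6.87%), Igkv4-55 (16.4%) and Igkv4-59 (8.55%) in GTE libraries 1 to 4. In control libraries 1 to 4 they were Igkv10-96 (16.9%), Igkv6-23 (10.2%), Igkv4-55 (10.8%) and Igkv4-55 (13.2%). Igkv4-55 was thus the only kappa leader found in all 3 groups.

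The evenness of use can be put as an effective number of segments (the inverse of the summed squared shares), the number of equally used segments that would give the same concentration. For heavy segments it ran from 14.5 (coffee 2) to 42.6 (coffee 1), both in the coffee group, and for kappa segments from 16.4 (GTE 3) to 34.8 (GTE 4), both in the GTE group. Mean heavy values were 26.4 ± 12.1 in coffee, 22.8 ± 4.57 in GTE and 22.7 ± 5.98 in control libraries (SD, n = 4 each), less apart than the libraries of any 1 group. Heavy segments at 1 FPKM or more numbered 40 to 64 in coffee, 36 to 67 in GTE and 26 to 44 in control libraries. With a fixed cutoff this count also depends on the heavy sum of the library. It was 67 in GTE 1, at 554.2 FPKM, and 26 in control 3, at 82.5 FPKM. The 10 highest of the 81 heavy segments held 41.5% of the heavy sum of means, and the 10 highest of the 72 kappa segments held 38.2% of the kappa sum.

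By family, Ighv1, the large J558 family, was the most used. It had 42 members among the 64 of its genes measured and held on average 59.9% of the heavy sum, from 44.5% in control 1 to 71.3% in coffee 3. No other heavy family exceeded 6.22% on average (Ighv6, from 2.39% in coffee 2 to 13.7% in GTE 2). Igkv4 led the kappa families with 18 members of 30 genes measured and 24.8% on average, lowest in GTE 1 (14.7%) and highest in GTE 3 (45.0%). Igkv6 followed with 12.0%, lowest in coffee 2 (6.34%) and highest in GTE 1 (25.4%). Group means of the Ighv1 share were 64.1% in coffee, 58.0% in GTE and 57.7% in control libraries, and those of the Igkv4 share were 24.2% in coffee, 25.5% in GTE and 24.8% in control libraries, all within the range of single libraries.

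**Figure D2:**
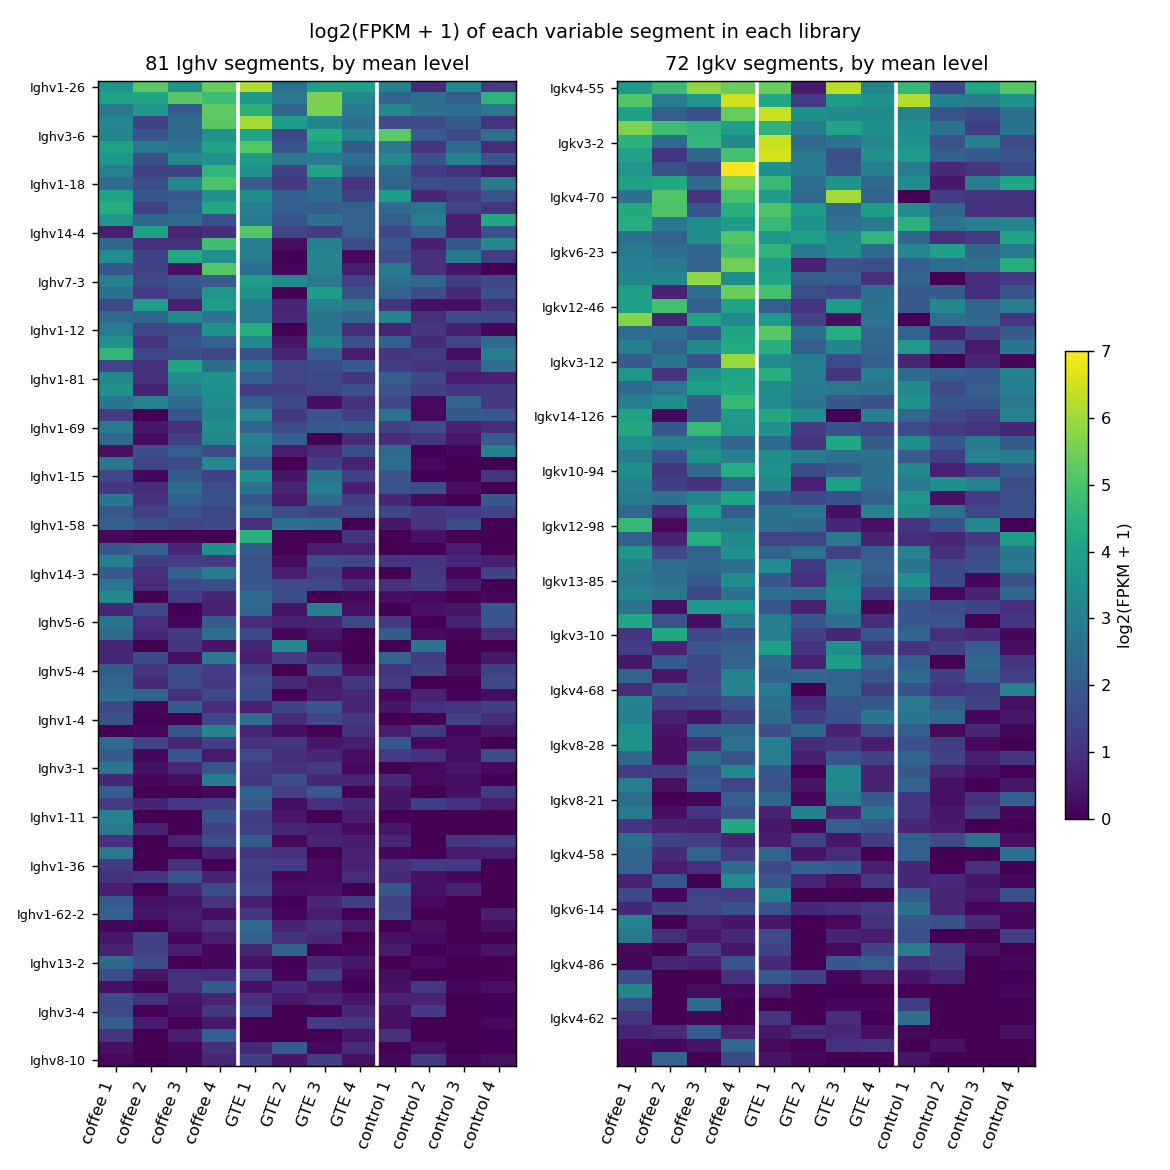
Level of each V segment, as log2(FPKM + 1), in each library, for 81 heavy (left) and 72 kappa segments (right), each sorted by mean level with some of the symbols written. Bright cells stand alone in single libraries, such as Igkv3-4 in coffee 4 at 119.2 FPKM, and coffee 1, coffee 4 or GTE 1 is the highest library for 105 of the 153 segments.

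Segment by segment, the spread between libraries was far larger than for the typical gene tested. The coefficient of variation over the 12 libraries had a median of 112% over all 153 members, and of 102% over the 125 that passed the expression filter of the tests (at least 1 FPKM in at least 4 libraries), beside 17.1% over all 15854 genes that passed. Counting error from the mean number of fragments would give a median of 20.8%. Within groups, the SD of log2(FPKM + 1) had a median of 1.01 for tested members and 0.187 for all genes tested. Such spread was not particular to V segments. The constant gene Ighg3 ran from 0.154 to 41.2 FPKM, and Slc4a1 of the erythroid list from 5.15 to 150.6 FPKM. Only 72 members were above 0 in all 12 libraries, and 81 were at 0 in at least 1.

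For a typical member the highest library stood 6.01 times above the median library (median over members). The ratio was at least 5 in 92 members and at least 10 in 39, and the smallest was 1.69, in Igkv14-111. Where the median library was under 3 fragments, as in 20 members, the ratio was taken to that limit and is a lower bound. Coffee 1, coffee 4 or GTE 1 was the highest library for 105 of the 153 members. In full, the highest library was coffee 1, 2, 3 and 4 for 38, 4, 13 and 36 members, GTE 1, 2, 3 and 4 for 31, 5, 15 and 1, and control 1, 2, 3 and 4 for 6, 0, 0 and 4.

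**Figure D3:**
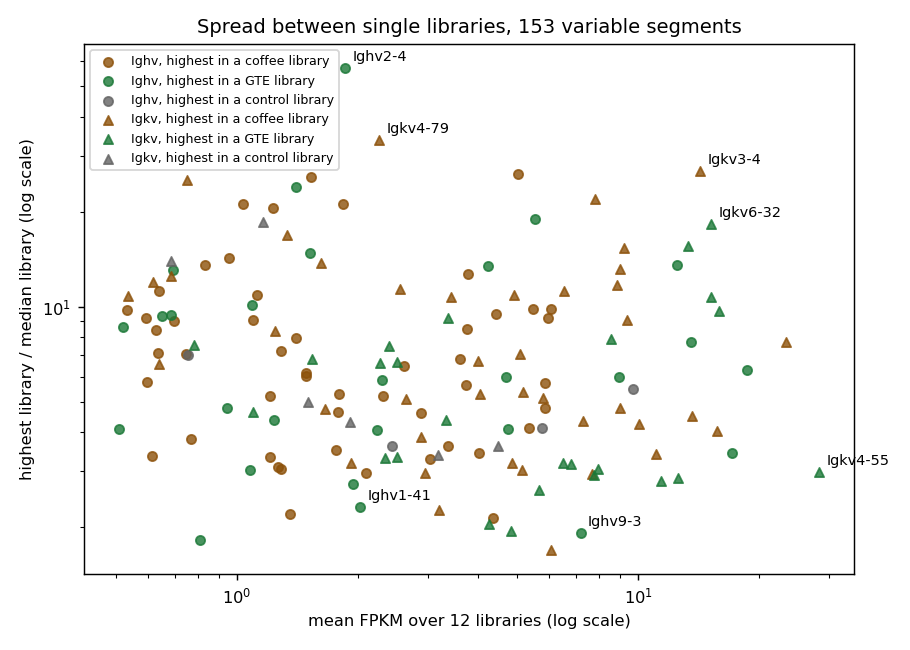
Ratio of the highest to the median library (log axis) against the mean FPKM over 12 libraries (log axis) for each of 153 V segments, coloured by the group of the highest library, with circles for heavy and triangles for kappa segments. Ratios of 10 and more occur at low and high mean levels, and few segments peak in a control library.

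The ratio was largest for Ighv2-4. It had 0.124, 0, 0 and 0 FPKM in coffee libraries 1 to 4, 20.8, 0, 0 and 1.09 FPKM in GTE libraries, and 0, 0.278, 0 and 0 FPKM in control libraries. GTE 1 therefore held nearly all of its signal, 170 fragments or 20.8 FPKM (95% exact Poisson interval 17.8 to 24.2), at least 57.1 times the median library. It did not pass the filter and was not tested.

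Igkv3-4 peaked in coffee 4. It had 11.4, 2.32, 1.59 and 119.2 FPKM in coffee libraries, 10.4, 6.32, 2.54 and 7.44 FPKM in GTE libraries, and 6.68, 0.812, 1.12 and 1.91 FPKM in control libraries. The peak rested on 1035 fragments (95% exact Poisson interval 112 to 127 FPKM), 11.4% of all kappa fragments of that library (exact binomial interval 10.7 to 12.0%), and was 26.9 times the median library. Igkv4-79 also peaked in coffee 4, at 17.6 FPKM, 33.8 times its median library, and so did Ighv2-2, at 34.8 FPKM, 26.4 times its median. Ighv2-9 peaked in coffee 1 at 9.11 FPKM, at least 25.8 times its median library.

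GTE 1 had peaks of its own in 3 of the 10 highest kappa segments. Igkv6-32 reached 91.9 FPKM there, against 1.14 to 28.9 FPKM in the other 11 libraries. Igkv6-15 reached 83.8 FPKM, against 1.97 to 39.7 FPKM elsewhere, and Igkv3-2 reached 83.8 FPKM, against 2.05 to 23.5 FPKM elsewhere. GTE 3 was the highest library for Igkv4-70 (64.7 FPKM) and for Igkv4-55 (75.7 FPKM).

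A few segments were much steadier. The pseudogene Ighv1-41, with the lowest coefficient of variation at 39.5%, had 2.77, 1.53, 2.37 and 1.64 FPKM in coffee libraries, 4.17, 2.10, 1.72 and 1.94 FPKM in GTE libraries, and 1.89, 1.19, 1.35 and 1.70 FPKM in control libraries. Only GTE 1 stood clearly above the rest, and the 3 groups overlapped. Next came Igkv14-111 at 48.3%, Igkv6-17 at 48.9% and Ighv9-3 at 52.4%. Ighv9-3 ran from 2.26 FPKM in coffee 2 to 13.2 FPKM in GTE 1.

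Among the 10 highest heavy segments, Ighv1-26 had 11.6, 36.0, 11.2 and 40.8 FPKM in coffee libraries, 72.0, 4.97, 14.6 and 14.8 FPKM in GTE libraries, and 7.44, 0.833, 8.72 and 1.22 FPKM in control libraries. Every coffee library stood above every control library, while GTE 2 fell inside the control range. Ighv1-53 had 15.7, 16.6, 36.3 and 27.2 FPKM in coffee libraries, 12.2, 6.13, 48.1 and 8.72 FPKM in GTE libraries, and 3.90, 4.86, 3.33 and 22.2 FPKM in control libraries. Control 4 alone put the control group inside the range of both drinks.

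Ighv3-6 was the one of these 10 that peaked in a control library, with 35.8 FPKM in control 1 and 1.97 to 18.6 FPKM in the other 11. Ighv1-9 peaked in GTE 3 at 47.0 FPKM, and Ighv6-3 in GTE 1 at 64.0 FPKM, as did Ighv1-80 at 34.3 FPKM. Ighv1-55 (23.5 FPKM) and Ighv1-18 (32.0 FPKM) peaked in coffee 4, and Ighv6-6 in coffee 1 (15.6 FPKM). The peaks of these 10 segments thus fell in libraries of all 3 groups.

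Of the 10 highest kappa segments, Igkv4-55 had 12.7, 26.3, 56.1 and 41.2 FPKM in coffee libraries, 40.8, 0.428, 75.7 and 7.86 FPKM in GTE libraries, and 24.4, 1.93, 17.0 and 34.5 FPKM in control libraries. The highest and the lowest library of this segment were both GTE libraries. Igkv10-96 had 34.0, 6.87, 11.6 and 89.2 FPKM in coffee libraries, 16.9, 1.36, 13.2 and 10.8 FPKM in GTE libraries, and 72.2, 7.06, 6.50 and 11.4 FPKM in control libraries. Its high libraries were 1 of coffee and 1 of control.

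Igkv19-93 peaked in coffee 4 at 47.0 FPKM and was lowest in control 2 at 0.403 FPKM. Igkv8-30 was at 31.7 FPKM in coffee 2 and 31.8 FPKM in GTE 1, its highest libraries, and lowest in control 4 at 0.934 FPKM.

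Whether coffee changed the segments was tested with limma on log2(FPKM + 1) over all 15854 genes that passed the filter, with Benjamini-Hochberg adjusted p. None of the 125 members tested, 61 Ighv and 64 Igkv, passed an adjusted p of 0.05 for coffee against control, where 0.00631% of all genes tested did. The smallest adjusted p among members was 0.199. At an unadjusted p under 0.05, 23 members were higher in coffee (18.4%) and 0 lower, beside 9.25% of all genes tested that were higher and 10.8% that were lower. Counted on the recovered fragments with limma-voom, 0 members passed the adjusted threshold and 20 were higher at an unadjusted p under 0.05.

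The members nevertheless lay mostly on 1 side. The difference in mean log2(FPKM + 1) was above 0 in 115 of 125 (92.0%), beside 51.8% of all genes tested, and its median was 0.80, beside 0.010. The filter can favour segments that are high in 1 group. With a filter on the mean over all libraries, which kept all 153 members, the median was 0.71. The same minimum mean chose the members and rises with single high libraries, so this filter does not remove such selection. It was 1.23 with a pseudocount of 0.1 and 1.25 with voom. Segments of a library share its cells and its depth, so these counts describe 8 libraries and are not 125 independent results.

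Leaving out coffee 1, coffee 4 and GTE 1, the 3 libraries in which most members peaked, the median log2 difference of coffee against control was 0.29, with 9 members higher and 0 lower at an unadjusted p under 0.05. These 3 were picked for their high V levels and all had a drink, so a lower median follows from the choice. With the myeloid marrow level as a covariate, the coffee against control median was 0.11, with 4 higher and 3 lower. That level was 8.56 to 9.33 in coffee and 7.55 to 8.37 in control libraries. The groups do not overlap in it, so this fit cannot separate it from the drink.

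Groups did not overlap, with coffee higher, in 12 of all 153 members, and in 10 of the 125 tested, beside 5.93% of all genes tested, and with coffee lower in 0, beside 6.89%. The members named next had the smallest p. Igkv1-117 had 48.8, 26.8, 22.2 and 13.9 FPKM in coffee libraries, 21.4, 6.83, 15.9 and 10.3 FPKM in GTE libraries, and 10.2, 5.18, 1.40 and 5.64 FPKM in control libraries. All 4 coffee libraries stood above all 4 control libraries, while GTE libraries overlapped both groups. Its log2 difference for coffee against control was 2.19 ± 0.49 (SE; limma adjusted p = 0.199), and the two-sided exact permutation test gave p = 0.0286, the smallest that 4 against 4 libraries allow.

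Igkv17-127 had 17.5, 2.80, 25.2 and 11.6 FPKM in coffee libraries, 10.6, 1.36, 2.42 and 1.78 FPKM in GTE libraries, and 2.08, 1.36, 1.12 and 0.718 FPKM in control libraries. Coffee was above control throughout, and its lowest library only just. The log2 difference was 2.44 ± 0.60 (SE; limma adjusted p = 0.199). Ighv4-1 had 4.72, 3.74, 0.990 and 1.80 FPKM in coffee libraries, 1.97, 0, 0.525 and 0.719 FPKM in GTE libraries, and 0.100, 0.588, 0.0973 and 0.208 FPKM in control libraries, a log2 difference of 1.51 ± 0.37 for coffee against control (SE; limma adjusted p = 0.199).

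The members furthest in the other direction were far from any threshold. Igkv17-121 differed by a log2 of -0.89 ± 0.69 (SE; limma adjusted p = 0.46), Igkv12-89 by -0.69 ± 0.60 and Ighv1-36 by -0.30 ± 0.39 between coffee and control libraries. The first of these had 7.29, 1.50, 1.02 and 3.66 FPKM in coffee libraries and 6.39, 10.3, 7.65 and 2.13 FPKM in control libraries, which overlapped.

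**Figure D4:**
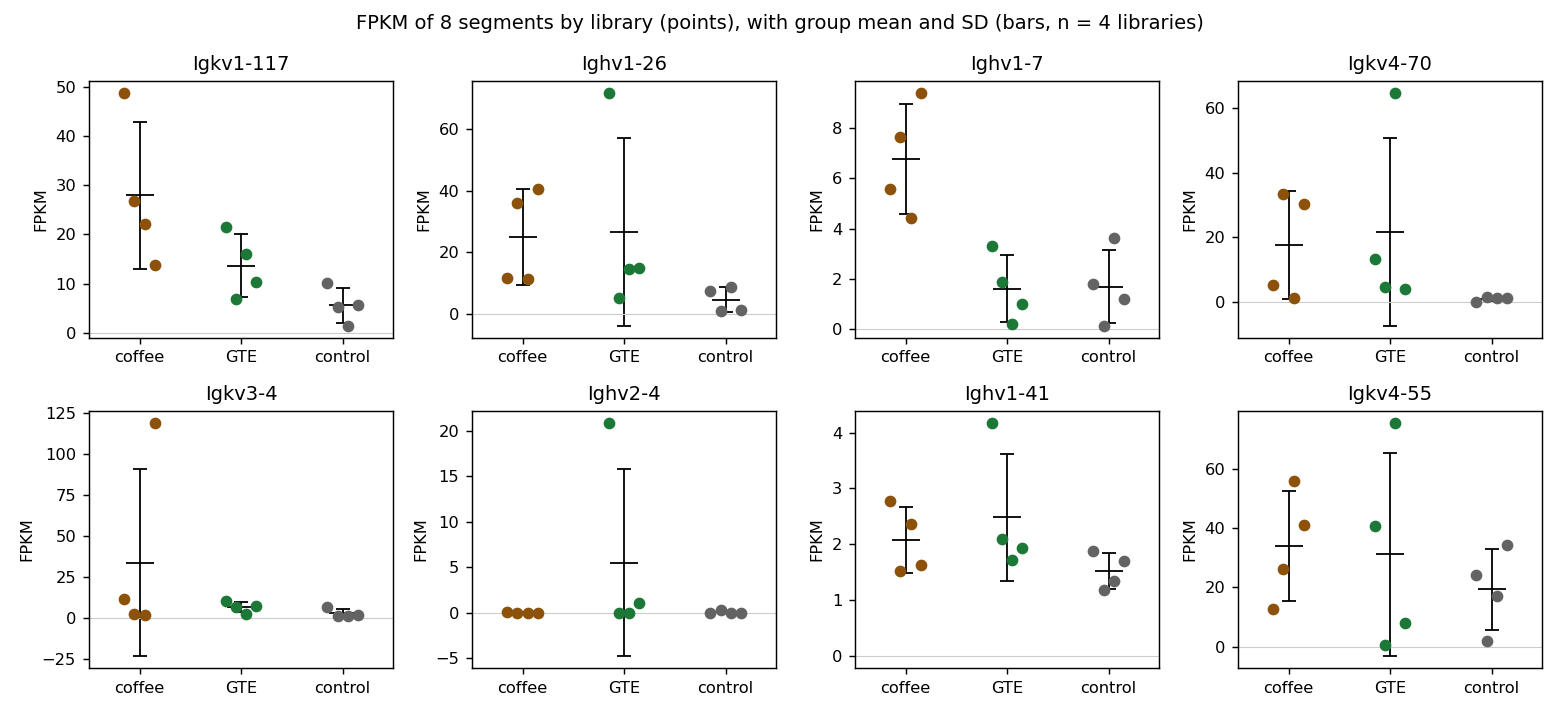
FPKM of 8 V segments in each library (points), with the mean and SD of each group (black, n = 4). Coffee lies above control without overlap for Igkv1-117, Ighv1-26 and Ighv1-7, while Igkv3-4 and Ighv2-4 owe their group means to 1 library each, at 119.2 and 20.8 FPKM.

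For green tea extract against control, 0 of 125 members passed the adjusted threshold (limma, smallest adjusted p = 0.543), beside 0.00631% of all genes tested. At an unadjusted p under 0.05, 10 members were higher and 0 lower (8.0% higher), beside 4.14% of all genes tested higher and 4.3% lower. By voom the count was likewise 0 after adjustment and 10 before it. The log2 difference was above 0 in 98 members (78.4%), beside 51.6% of all genes tested, with a median of 0.44, beside 0.007. The median was 0.10 with library quality weights, 0.87 with a pseudocount of 0.1 and 0.82 with voom. Without GTE 1 the median was 0.20, with 4 members higher and 1 lower at an unadjusted p under 0.05, and with the marrow covariate it was 0.06. GTE 1 had the highest V sums of its group, so a lower median follows from leaving it out. Without GTE 2, which had the lowest V sums of its group, the median was 0.62.

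Groups did not overlap, with GTE higher, in 6 of 153 members and in 5 of the 125 tested, beside 2.88% of all genes tested, and with GTE lower in 0, beside 2.95%. Igkv8-24 had 35.7, 4.78, 19.7 and 4.43 FPKM in GTE libraries and 3.63, 0.534, 1.54 and 3.06 FPKM in control libraries. The groups were apart, but the lowest GTE and highest control libraries nearly met. Its log2 difference was 2.09 ± 0.66 (SE; limma adjusted p = 0.543, exact permutation p = 0.0286).

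Igkv4-70 had 13.2, 4.50, 64.7 and 3.82 FPKM in GTE libraries and 0, 1.41, 1.06 and 1.02 FPKM in control libraries, with 5.27, 33.4, 1.08 and 30.3 FPKM in coffee libraries. All GTE libraries were above control, and coffee 3 was inside the control range. The log2 difference was 2.82 ± 0.98 for GTE against control (SE; limma adjusted p = 0.554). For Ighv6-3, with 64.0, 14.0, 8.19 and 5.02 FPKM in GTE libraries and 2.10, 2.05, 3.17 and 1.09 FPKM in control libraries, it was 2.34 ± 0.82 (SE; limma adjusted p = 0.559).

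In the other direction, Igkv4-57 differed by a log2 of -0.89 ± 0.81, Igkv4-61 by -0.76 ± 0.50 and Igkv10-96 by -0.74 ± 0.94 (SE) between GTE and control libraries, with limma adjusted p of 0.712, 0.624 and 0.797. Igkv3-12 was the 1 member without overlap in both drinks. It had 3.02, 5.71, 2.40 and 59.4 FPKM in coffee libraries and 9.32, 7.01, 2.06 and 3.44 FPKM in GTE libraries, against 0.693, 0, 0.673 and 0.120 FPKM in control libraries. Both comparisons use the same 4 control libraries, all of them low for this segment, and 58.4% of its 50-base windows are shared, chiefly with Igkv3-7.

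Between the drinks, 0 of 125 members passed for green tea extract against coffee (limma, smallest adjusted p = 0.718), and 0.0% of all genes tested did. At an unadjusted p under 0.05, 0 members were higher in GTE and 9 lower (7.2%), beside 4.52% of all genes tested higher and 2.23% lower, and voom gave 0 and 8. The log2 difference was above 0 in 37 members (29.6%), beside 49.5% of all genes tested, and its median was -0.29, beside -0.002. Without coffee 1 the median was -0.07, without coffee 4 it was -0.10, and with the marrow covariate it turned to 0.03, with 6 members higher and 3 lower. Without GTE 2, 1 member was higher and 2 were lower at an unadjusted p under 0.05, with a median of -0.12. Coffee 1 and coffee 4 had the highest V sums of their group and GTE 2 the lowest of its own. A smaller difference follows from leaving out any of these. Without coffee 2, which had the lowest V sums of the coffee group, the median was -0.57.

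Groups did not overlap, with GTE lower, in 2 of 153 members, Ighv1-7 and Igkv6-25, beside 0.839% of all genes tested, and with GTE higher in 0, beside 1.7%. Ighv1-7 had 3.32, 1.88, 0.224 and 0.987 FPKM in GTE libraries and 5.59, 7.65, 4.43 and 9.40 FPKM in coffee libraries, with 1.82, 0.126, 3.63 and 1.22 FPKM in control libraries. Coffee stood above both other groups, which overlapped each other. The log2 difference of GTE against coffee was -1.68 ± 0.45 (SE; limma adjusted p = 0.718, exact permutation p = 0.0286). Igkv17-127 and Ighv4-1, described above, differed by -1.62 ± 0.60 and -1.07 ± 0.37 (SE), with overlap.

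Higher in GTE than in coffee, but far from the threshold, were Ighv7-1 by a log2 of 0.78 ± 0.56, Ighv7-3 by 0.71 ± 0.52 and Ighv1-4 by 0.68 ± 0.50 (SE; limma adjusted p of 0.781, 0.784 and 0.785). Over all 3 groups together, 0 members passed limma's adjusted F test (smallest adjusted p = 0.371) and 17 of 125 had an unadjusted p under 0.05, beside 12.6% of all genes tested.

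**Figure D5:**
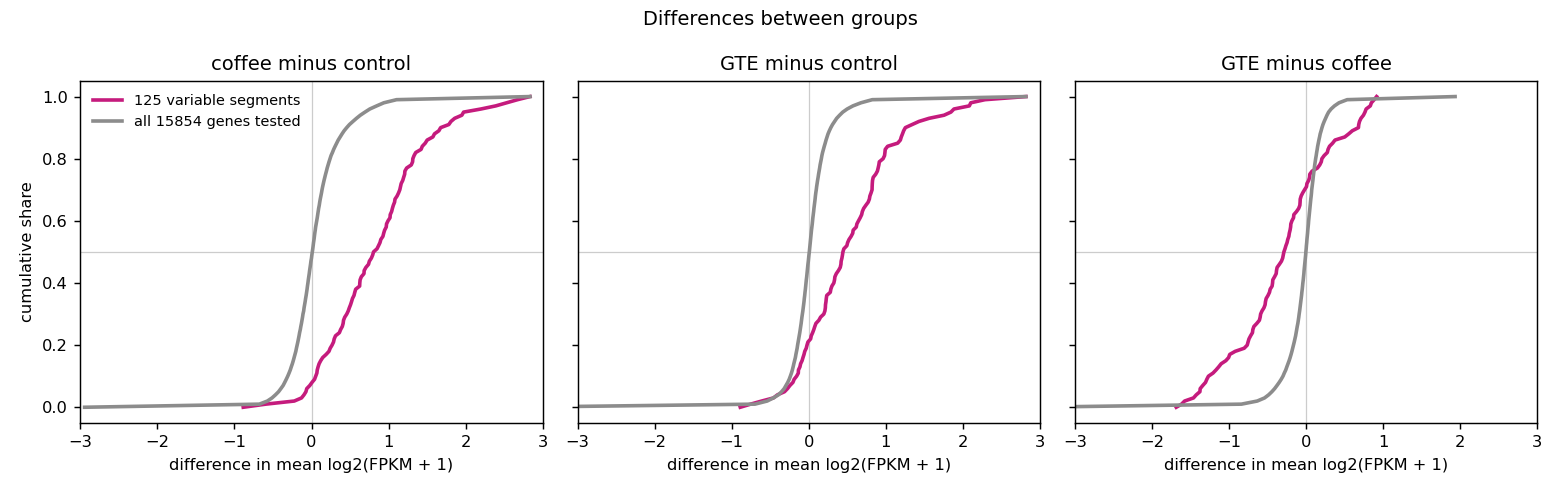
Cumulative share of the 125 tested V segments (pink) and of all 15854 tested genes (grey) by difference in mean log2(FPKM + 1), for coffee minus control, GTE minus control and GTE minus coffee. The segments' curve is shifted to the right in the first and second panels (medians 0.80 and 0.44) and to the left in the third (median -0.29).

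Rearranged V exons are spliced to constant regions, whose order over the libraries followed the V sums to unequal degrees. Igkc, the kappa constant gene, had 814.0, 404.2, 565.5 and 966.2 FPKM in coffee libraries, 689.4, 255.4, 660.9 and 379.7 FPKM in GTE libraries, and 575.4, 271.5, 252.1 and 285.1 FPKM in control libraries. Its order over libraries was close to that of the summed V segments (Spearman's rho 0.958 over 12 libraries), as was that of Ighm (0.916), while rho was 0.573 for Ighg1, 0.622 for Igha and 0.371 for Iglc1. The log2 difference of coffee against control was 1.00 ± 0.39 (SE; limma adjusted p = 0.221).

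Ighm, the constant gene of IgM, had 144.9, 169.8, 182.0 and 418.4 FPKM in coffee libraries, 392.4, 90.3, 320.1 and 125.2 FPKM in GTE libraries, and 204.6, 59.3, 64.7 and 100.6 FPKM in control libraries. As for the V sums, coffee 4 and GTE 1 were highest. Ighg2b, an IgG constant gene, had 101.4, 28.2, 55.5 and 69.7 FPKM in coffee libraries, 30.9, 12.2, 41.3 and 19.4 FPKM in GTE libraries, and 28.1, 21.9, 14.4 and 16.9 FPKM in control libraries. Coffee 2 exceeded control 1 by less than 1 FPKM, and the log2 difference of coffee against control was 1.50 ± 0.42 (SE; limma adjusted p = 0.199).

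Other isotypes followed single libraries. Ighg3 reached 41.2 FPKM in GTE 3 and 18.4 FPKM in coffee 2, and stayed at 0.154 to 6.27 FPKM in the other 10 libraries. Ighg2c had 132.2, 8.52, 90.8 and 145.6 FPKM in coffee libraries, 33.4, 17.5, 23.3 and 30.6 FPKM in GTE libraries, and 44.3, 29.2, 19.3 and 26.2 FPKM in control libraries. Coffee 2 was the lowest of all 12 libraries while the other 3 coffee libraries were the highest. Igha, the constant gene of IgA, averaged 68.7 ± 40.9 FPKM in coffee, 56.5 ± 21.1 FPKM in GTE and 54.5 ± 24.0 FPKM in control libraries (SD, n = 4 each).

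Ighg1, another IgG constant gene, had 1.29 to 20.0 FPKM in coffee, 2.58 to 14.7 FPKM in GTE and 5.46 to 11.8 FPKM in control libraries. Ighd, the IgD constant gene that mature naive B cells transcribe, had 0.647 to 2.56 FPKM in coffee, 1.13 to 5.87 FPKM in GTE and 0.805 to 1.47 FPKM in control libraries. Ighe, the IgE constant gene, was at 0.274 FPKM or less throughout. Jchain, which links IgM and IgA into polymers, averaged 46.7 ± 16.0 FPKM in coffee, 43.5 ± 14.9 FPKM in GTE and 30.4 ± 13.4 FPKM in control libraries (SD, n = 4 each). Ighe did not pass the filter and was not tested. None of the other constant genes or Jchain passed the adjusted threshold in any comparison.

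The lambda light chain locus is far smaller in mice than the kappa locus. Iglc2 had 6.95, 4.58, 4.55 and 6.44 FPKM in coffee libraries and 7.43, 4.18, 6.04 and 4.45 FPKM in GTE libraries, against 3.32, 3.34, 2.70 and 2.25 FPKM in control libraries. Both drinks stood above control without overlap, with log2 differences of 0.76 ± 0.18 for coffee (SE; limma adjusted p = 0.199) and 0.72 ± 0.18 for GTE (adjusted p = 0.497). Iglv3 was likewise apart, by 0.93 ± 0.37 for coffee and 1.21 ± 0.37 for GTE (SE; limma adjusted p of 0.221 and 0.543). Iglc2 and Iglc3 are near-identical copies, and Iglc3 showed -0.06 ± 0.47 for coffee and 0.04 ± 0.47 for GTE. Iglc1 and Iglv1 overlapped in both comparisons.

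Of the genes outside the Ighv and Igkv families, those most like the summed V level in rank over the 12 libraries were Foxred2 (Spearman's rho 0.979), Flt3 (0.972), Igkc and Prss34 (0.958 each), Fam78a and Ly9 (0.951 each), and BE692007 and Ripor2 (0.944 each). Flt3 encodes a cytokine receptor of early blood progenitors and Prss34 a protease of basophils and mast cells. They were followed by Cep57l1, Arl11, Abcd2 and Hvcn1 (0.937 each), the last of which encodes a proton channel of B cells and granulocytes. Flt3 was low throughout, with 2.33, 2.19, 2.24 and 2.89 FPKM in coffee libraries, 2.54, 1.91, 2.43 and 1.67 FPKM in GTE libraries, and 2.19, 1.52, 1.44 and 2.05 FPKM in control libraries. These are descriptions over 12 libraries that share 3 groups, drawn from 15854 genes by the size of rho.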

How the data were processed

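Total RNA of cochleae was made into stranded poly(A) libraries, per the labels' protocols. The deposited values are FPKM per Ensembl gene and library, made by the authors with Trimmomatic, HISAT2, HTSeq and Cufflinks on mm10, per the submitters' processing notes. Tool versions, strand setting and the treatment of fragments matching several genes are not given in these sources. Symbols, positions and coding sequences came from GENCODE release M21.

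Differences were tested with limma 3.58.1 (R 4.3.3) on log2(FPKM + 1) with a mean-variance trend, over 15854 genes that reached 1 FPKM in 4 or more of the 12 libraries. On this scale, differences of low genes come out too small. Whole fragments (within 0.01) were recovered for 92.3% of genes from FPKM and exon length, and tested with voom as an alternative. Single genes also had two-sided exact permutation tests of 70 arrangements. No pair of files was identical. The procedure was checked on simulated data with independent noise per gene. V segments of a library share its cells and depth, so that check does not show how the tests perform on them. The members, lists and tests were chosen with earlier results of these data known. Genes named were the 10 Ighv and 10 Igkv members with the highest mean, the 5 with the largest ratio of highest to median library, per comparison the 3 with the smallest p each way, and those at the edge of the minimum. Also named were the immunoglobulin constant and lambda genes and the 10 (with ties, 12) genes most like the V sum. Others were named after their values were seen. A gene of the mature B cell list is not reported here and was left out of its sum. Python 3.11.15, pandas 2.3.3 and scipy 1.17.1 made the summaries.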

Additional observations from a re-analysis of the deposited data

Results flagged for a closer look

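Of 162 groups of 4 values examined, 9 held a library far from the other 3 on the log2(FPKM + 1) scale, by a criterion that chance meets in about 1 in 20 groups. Igkv6-15 was at 83.8 FPKM in GTE 1 and 9.02 to 10.4 FPKM in the other GTE libraries. Igkv4-79 was at 17.6 FPKM in coffee 4 and 0.458 to 1.09 FPKM in the other coffee libraries. Ighv7-1 was at 3.35 FPKM in coffee 1, with 0 to 0.114 FPKM in the others of its group.

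In control 1, Igkv6-32 was at 13.7 FPKM (others 2.58 to 3.33), Ighg1 at 11.8 FPKM (others 5.46 to 5.88), Ighg3 at 3.18 FPKM (others 0.154 to 0.401) and Igkc at 575 FPKM (others 252 to 285). Ighv2-4 stood at 0.124 FPKM in coffee 1 and 0.278 FPKM in control 2 where the others of each group were at 0, values at or under the limit of 3 fragments.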

How the results depend on the processing

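Over 27 other settings, 567 differences were recomputed for 21 results (the 3 medians and the segments with the smallest p), and 2 changed sign. The GTE against coffee median was 0.03 with the marrow covariate (main value -0.29), and Igkv10-96 for GTE against control was 0.01 without control 1 (main value -0.74). Of the values of main results under them, 262 stayed within the replicate spread or on their side of the threshold and 8 moved. Of the values for segments with the smallest p, 481 stayed and 5 passed the threshold, each with library quality weights. Those weights gave 13 of 125 members that passed for coffee against control, beside 2437 of all 15854 genes tested. They gave 3 members for GTE against coffee, beside 365 genes, and 4 over the 3 groups, beside 700 genes (0 members in the main analysis). The shares of members were near or under those of all genes. Ighv1-26, Ighv1-7, Igkv3-12 and Igkv4-70 were among the 13. The 5 log2 differences with these weights were 1.64 for Igkv1-117, 1.49 for Ighv4-1 and 2.28 for Igkv17-127 (coffee against control), and -1.94 for Igkv17-127 and -2.20 for Ighv1-7 (GTE against coffee). The cause was not tested. Leaving out each library in turn gave 0 to 1 members that passed for coffee against control, 0 to 1 for GTE against coffee, 0 to 1 over the 3 groups and 0 for GTE against control. Of all 15854 genes tested, 98 passed for coffee against control without coffee 3 and 28 without GTE 1, with 0 members among them. Over the 3 groups, 15 and 5 genes passed there, again with 0 members. The 1 was Ighv1-22, without coffee 2 (limma adjusted p = 0.0195, 0.0275 and 0.0293), and no other gene passed there. The 23 members at an unadjusted p under 0.05 for coffee against control were 10 without coffee 4, 15 without coffee 1, 15 without control 2, 14 without control 3 and 37 without coffee 2. The 10 for GTE against control were 4 without GTE 1, and 16 without GTE 2 or GTE 4. Shares of all genes at an unadjusted p are given for the main analysis only. Counts of members at that p under other settings therefore have no share beside them and cannot be read against all genes. Without coffee 2 the GTE against coffee median was -0.57, and without GTE 1, -0.56. With the marrow covariate, which was itself higher in all coffee than in all control libraries, the coffee against control median was 0.11. A minimum mean of 5 FPKM leaves 49 members. Whether replicate numbers pair libraries was not settled. The correlation of deviations was -0.383 to 0.55 for same-numbered pairs, with 5 of 12 over 0.1. For other pairs it was -0.562 to 0.529, with 11 of 36 over 0.1. With a replicate block, 0 members and 0 of all genes tested passed in each comparison, with 32, 14 and 14 members at an unadjusted p under 0.05. Depth limits members near 0.28 to 0.39 FPKM.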

Other observations

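Ighv11-2 and Igkv14-126, chosen after their values were seen, are known in mice as the heavy and light segments of B-1 cell antibodies that bind phosphatidylcholine. Ighv11-2 had 4.14, 0.181, 1.51 and 8.63 FPKM in coffee libraries, 7.35, 3.26, 0 and 0.830 FPKM in GTE libraries, and 0.899, 1.16, 0.349 and 2.98 FPKM in control libraries. Igkv14-126 had 15.3, 0.117, 2.98 and 12.7 FPKM in coffee libraries, 18.1, 10.2, 0 and 7.37 FPKM in GTE libraries, and 4.05, 2.04, 1.46 and 7.44 FPKM in control libraries. Both were at 0 in GTE 3, whose heavy sum was 338.6 FPKM, and both were under 0.2 FPKM in coffee 2.

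Taken as shares of the heavy and of the kappa sum, which removes the library's total, their ranks over 12 libraries gave a Spearman's rho of 0.797. Of 72 kappa segments, Igkv14-126 ranked 1 in likeness to Ighv11-2, and of 81 heavy segments, Ighv11-2 ranked 1 in likeness to Igkv14-126. The share was highest in GTE 2 for both, at 2.56% for Ighv11-2 and 4.71% for Igkv14-126. For the other pair known from such antibodies, Ighv12-3 and Igkv4-91, rho was 0.109 and the kappa segment ranked 34 of 72. Ighv12-3 averaged 0.533 FPKM, near the limit of 3 fragments. These are descriptions of 12 libraries with no test.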
